A study of Caenorhabditis elegans with 80 samples.

Results

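The short-chain dehydrogenases described here are the 34 genes of the array whose symbol begins with dhs- (30 genes) or stdh- (4 genes), out of 17118 genes named alone by at least 1 probe set. They were chosen by symbol, without regard to their signal, and each is represented by the probe set of highest mean signal among the 37 that name these genes. Of the chosen probe sets, 16 carry a suffix that marks probes able to match more than 1 transcript, so signal from close relatives may be shared there, and 18 do not. The 16 are those of dhs-1, dhs-3, dhs-4, dhs-6, dhs-7, dhs-9, dhs-13, dhs-14, dhs-17, dhs-18, dhs-19, dhs-20, dhs-21, dhs-22, dhs-27 and dhs-29. All 34 genes matched a RefSeq gene (WBcel235) by gene ID, and in that annotation stdh-1 and stdh-3 had 0 protein-coding genes between them and dhs-14 and dhs-15 had 1.

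Caenorhabditis elegans in the mid-L4 larval stage was grown without bacteria in CeHR liquid medium and exposed to acrylamide (100, 500 or 1000 mg/L), cadmium (5, 20 or 50 mg/L) or mercury (5, 10 or 25 mg/L), called low, mid and high dose below. The labels name the metals and no salt, and they name no strain. Each chemical had its own unexposed controls at 4 h and 8 h, the exposure times, and at 0 h, when the protocol speaks of 1 flask collected before exposure. Polyadenylated RNA of whole worms was read on 80 arrays in 27 groups of 3 arrays, except the mid dose of cadmium at 4 h with n = 2. Whether the 3 replicates of a group came from separate cultures is not stated in the labels. The p-values below therefore reflect the variation among these arrays, part of which may be technical. In RNA of whole worms, fewer cells of a type and less RNA per cell cannot be told apart.

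Short-chain dehydrogenases/reductases are a large enzyme family with a shared nucleotide-binding fold. They use NAD(H) or NADP(H) to oxidize alcohols or to reduce carbonyl groups of steroids, retinoids, fatty acyl chains, sugars and foreign compounds. In C. elegans, dhs-3 encodes a major protein of lipid droplets in the intestine and dhs-19 encodes another lipid droplet protein. The product of dhs-28 acts in peroxisomal beta-oxidation, which shortens the side chains of ascaroside pheromones. The product of dhs-16 takes part in the making of dafachronic acids, steroid hormones that bind the nuclear receptor DAF-12. The dhs-21 product is an L-xylulose reductase, and the stdh genes are named for their likeness to steroid dehydrogenases.

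Values are MAS5 signals, a summary of probe brightness on a linear scale, centred on the same median in every array. A member was tested in a series where at least 3 arrays exceeded a signal of 132, the 40th percentile of all signals. By this rule 29 members were tested for acrylamide, 27 for cadmium and 28 for mercury, 27 of them in all 3 series. The 5 members tested in no series were dhs-15, dhs-23, dhs-24, stdh-3 and stdh-4, with highest signals of 151.6, 233.4, 111.7, 69.25 and 228. The gene dhs-8 was not tested for cadmium. The gene stdh-2 was tested for acrylamide alone, and there it passed through 7 arrays, all of exposed worms. For acrylamide and mercury dhs-8 passed through exposed arrays as well, and its only control signal above 132 was 142.4, in acrylamide at 8 h. Their calls in these series therefore follow in part from the rule. Log2 changes are differences of log2(signal + 52) with standard errors (SE), and a member was called, that is, rose or fell, at an adjusted p under 0.05 (limma, Benjamini-Hochberg over all probe sets tested). A fold is 2 to the power of this difference and understates the change of dim genes. Exposed groups of 1 chemical and time share their controls.

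Acrylamide gave mostly higher calls and mercury calls in both directions, whereas the calls for cadmium were mostly lower at 4 h. Of the 29 members tested, 20 were called in at least 1 of the 6 high-dose comparisons, 10 of them only higher and 10 only lower, and 0 in both directions. Of all 17105 probe sets tested in at least 1 series, 39.5% were called by the same rule, 19.1% only higher, 19.5% only lower and 0.918% in both directions. With the deposited scaling or quantile normalization 3 members (dhs-2, dhs-7 and dhs-26) had calls in both directions. The 10 higher were dhs-4, dhs-5, dhs-6, dhs-8, dhs-9, dhs-12, dhs-19, dhs-22, dhs-31 and stdh-2. The 10 lower were dhs-2, dhs-3, dhs-7, dhs-14, dhs-18, dhs-20, dhs-25, dhs-26, dhs-27 and dhs-28. Of the 7 tested members with no call in any of the 18 exposed groups, stdh-1 and dhs-16 have a known or likely steroid role, and the others were dhs-1, dhs-11, dhs-13, dhs-17 and dhs-29. The genes dhs-21 and dhs-30 had no high-dose call but were called at a lower dose.

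**Figure D1:**
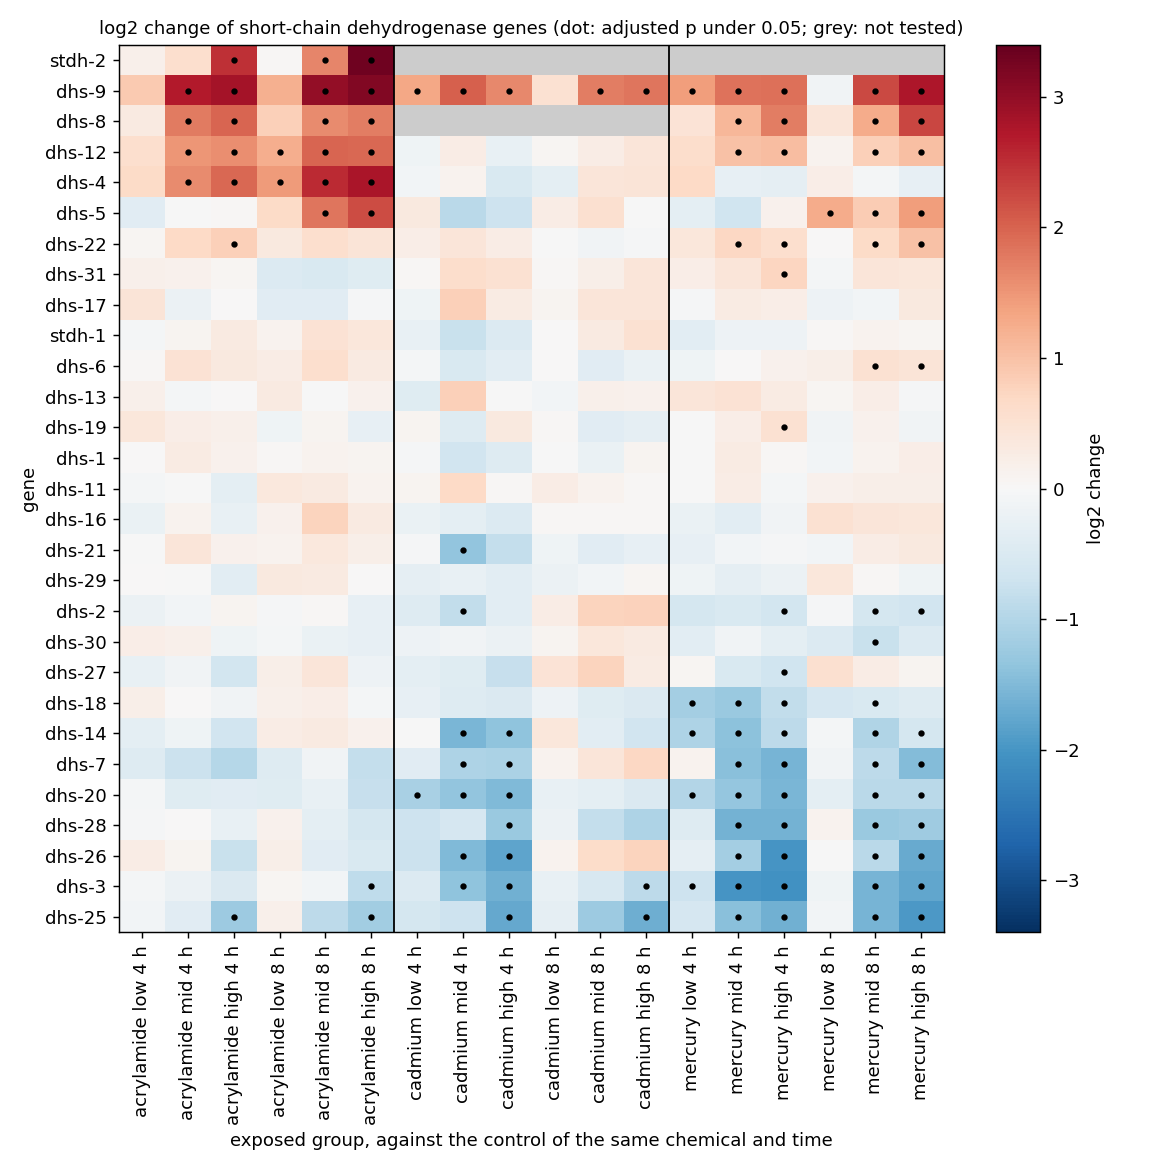
Heat map of the log2 change (colour) of the 29 tested short-chain dehydrogenase genes (rows) in each exposed group against the control of the same chemical and time (columns), with a dot at an adjusted p under 0.05 and grey where a gene was not tested. The row of dhs-9 is red with a dot in all 6 high-dose columns, and the row of dhs-25 is blue with a dot in all 6.

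High acrylamide raised 6 members (dhs-4, dhs-8, dhs-9, dhs-12, dhs-22 and stdh-2) and lowered 1 (dhs-25) at 4 h, while 6.2% of all probe sets were called. At 8 h 6 rose, with dhs-5 in place of dhs-22, and 2 fell (dhs-3 and dhs-25), with 8.8% called. Among the raised members, stdh-2 passed the filter only, and dhs-8 mainly, through exposed arrays, so these counts follow in part from that rule. Over all probe sets, 3.12% were higher and 3.08% lower at 4 h, against 4.17% and 4.63% at 8 h. The median log2 change of the tested members was 0.01 at 4 h and 0.09 at 8 h, beside -0.06 over all probe sets at both times. At the mid dose 4 members rose and 0 fell at 4 h, where 1.6% of probe sets were called (1.3% higher, 0.297% lower). At 8 h of that dose 6 rose and 0 fell, with 2.41% called (1.94% higher, 0.467% lower). At the low dose 0 were called at 4 h by limma (0.158% of probe sets called, 0.152% higher and 0.00607% lower), with 3 at an unadjusted p under 0.05. At 8 h of the low dose dhs-4 and dhs-12 rose (0.328% called, 0.321% higher and 0.00607% lower). Without the centring of arrays, 6 higher and 0 lower calls were made at each time of the high dose, and after quantile normalization 6 and 0 at 4 h. The log2 ratio of the 3' to the 5' actin probes, a measure of RNA integrity on the array, was 0.970 ± 0.095 (SD, n = 3) in the 8 h controls and 1.308 ± 0.169 (SD, n = 3) at the high dose. With this ratio as a term of the fit, 6 higher and 1 lower call were made at 8 h.

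The gene dhs-9 rose in all 6 high-dose comparisons, and in acrylamide from an already bright signal. It is read by 1 probe set, which carries the suffix for probes able to match more than 1 transcript. At 4 h its signal was 1505, 1012 and 1722 in the acrylamide controls and 7887, 9744 and 13480 at the high dose. At 8 h the controls gave 678.1, 880.3 and 910.6, and the high dose gave 3991, 11550 and 9483. Every exposed array lay above every control at both times. The log2 change was 2.83 at 4 h (SE 0.344, 7.10-fold, adjusted p = 3.03e-06) and 3.14 at 8 h (8.80-fold, adjusted p = 4.11e-07). The mid dose gave 2.68 and 3.00. At the low dose of 4 h the arrays had 1780, 3195 and 3147, a difference of 0.90 that was not called.

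The signal of dhs-12 at 8 h was 957.6, 731.4 and 817 in controls and 3268, 3222 and 3537 in high acrylamide. The groups were far apart, and the low dose, at 2313, 1877 and 1861, lay between them. The high dose raised it by 1.94 at 8 h (SE 0.214, 3.84-fold, adjusted p = 4.63e-07) and by 1.58 at 4 h, and the low dose raised it by 1.22 at 8 h (adjusted p = 0.00279). For dhs-8, a dimmer gene, the 4 h controls gave 102.6, 88.62 and 67.57 and the high dose 397.9, 584.9 and 507.7. It rose by 1.98 at 4 h (adjusted p = 0.00016) and by 1.74 at 8 h (adjusted p = 0.000609), again with no overlap of the groups. As dhs-8 passed the filter through exposed arrays, these calls follow in part from that rule. The gene dhs-22 rose at 4 h alone, by 0.80 (1.75-fold, adjusted p = 0.00631), from 1165 to 1558 in controls to 2058 to 2738. Without the other groups in the fit its adjusted p was 0.0852.

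The gene dhs-4 was low in the 8 h controls, at 186.8, 114.7 and 142, and reached 1076, 1255 and 1612 in high acrylamide. At 459.9, 510.7 and 495.1, the low-dose arrays already lay above all controls. The changes were 2.77 at the high dose (SE 0.204, 6.82-fold, adjusted p = 9.3e-10) and 1.45 at the low dose (adjusted p = 0.000176) at 8 h, and 1.95 at the high dose at 4 h. The probe set of these values carries the suffix for probes able to match more than 1 transcript. At the high dose a second, dimmer probe set of dhs-4, without that suffix, also rose, by less: 1.18 at 4 h (adjusted p = 0.00489) and 1.26 at 8 h (adjusted p = 0.00223). At the low dose this second probe set gave 0.53 at 8 h, which was not called, so the low-dose call rests on the brighter probe set. The transcript of stdh-2, of the steroid dehydrogenase-like group, was near the bottom of the scale in the 8 h controls, at 4.517, 3.757 and 2.804. High acrylamide gave 474.4, 664.8 and 390.6 at 8 h and 152.2, 322.1 and 586.2 at 4 h, above all controls. On the scale used its changes were 3.31 (adjusted p = 2.2e-07) and 2.49 (adjusted p = 2.37e-05), and with a pseudocount of 16 they were 4.71 and 3.55, so the fold is not fixed for so dim a control. In the mid dose at 8 h it was 161.8, 92.5 and 119.7 and rose by 1.65 (adjusted p = 0.00586). Only exposed arrays carried stdh-2 over the filter, so these calls follow in part from that rule.

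The gene dhs-5 was called at 8 h of high acrylamide. At 4 h its acrylamide groups overlapped, with 235.4, 502 and 734.4 in controls and 331.3, 498 and 608.9 at the high dose. At 8 h the controls had 40.1, 168 and 89.24 and the high dose 543.7, 530 and 769.8, a change of 2.21 (4.64-fold, adjusted p = 0.000333). Of the 3 exposed arrays at 8 h, 2 lay within the range of the 4 h controls and 1 above it. The difference of the effects at the 2 times was 2.16 (SE 0.551, adjusted p = 0.55). In that test of 8 h against 4 h no member was called for acrylamide by limma, and 0% of all probe sets were, although 3 members had an unadjusted p under 0.05.

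**Figure D2:**
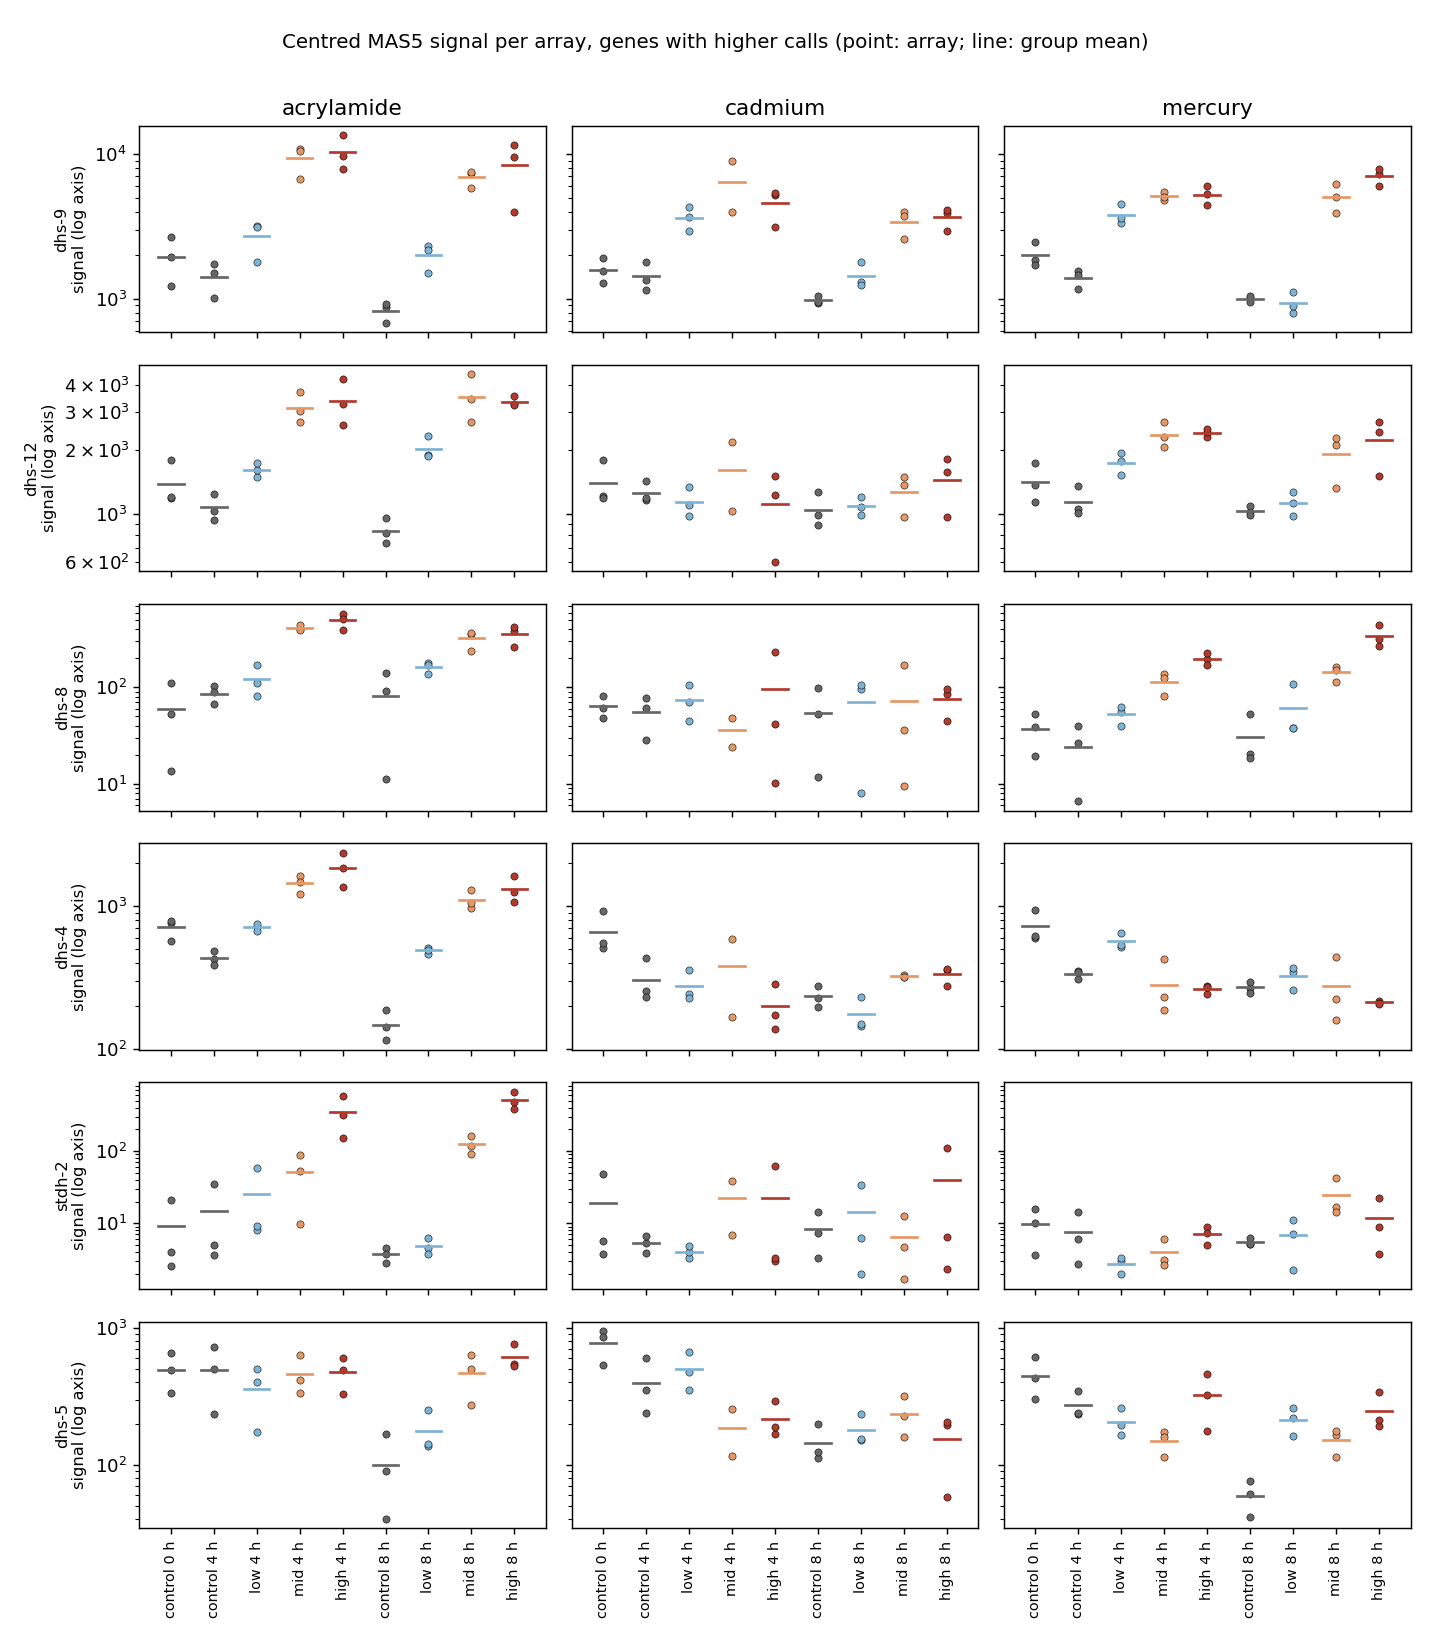
Centred MAS5 signal (log axis) of 6 genes with higher calls in every array (points) of each group, with group means (lines), for acrylamide, cadmium and mercury. In high acrylamide at 8 h dhs-9 reaches 3991 to 11550 against 678.1 to 910.6 in controls, while dhs-4 and stdh-2 are high in the acrylamide panels.

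Of the members lowered by acrylamide, dhs-25 fell at both times of the high dose. Its signal at 4 h was 1141, 1343 and 1465 in controls and 369.1, 671.6 and 581.5 when exposed, a change of -1.24 (adjusted p = 0.0322). At 8 h the change was -1.18 (adjusted p = 0.0337). Both calls were near the threshold and ended with the deposited scaling (adjusted p = 0.196 and 0.16). The 4 h call also ended without any one of its arrays other than replicate 2 of the high dose (highest adjusted p = 0.159), and the 8 h call without control replicate 1 (0.222) or any exposed array. The lipid droplet gene dhs-3 gave 1401, 1705 and 1463 in the 8 h controls and 659.7, 862.2 and 942.6 in high acrylamide, and fell by 0.86 (adjusted p = 0.00233). With its second probe set the change was -0.63 (adjusted p = 0.153), and with the deposited scaling the adjusted p was 0.0668. Intestine markers were lower beside these genes, 3 of 10 at 4 h and 4 of 10 at 8 h, with summed signals of 49520 to 56120 in the 8 h controls and 28590 to 40110 at the high dose. Body wall muscle markers fell in 1 and 2 of 7, oocyte and germline markers in 0 and 8 of 10, and epidermis markers in 0 of 7 at both times. Their part in the result was not tested.

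Cadmium lowered 7 members and raised 1 at 4 h of the high dose, where 7.09% of all probe sets were called (2.82% higher and 4.27% lower). At 8 h dhs-9 rose and dhs-3 and dhs-25 fell, with 6.48% of probe sets called (3.64% higher and 2.84% lower). The members' median log2 change was -0.46 at 4 h and 0.06 at 8 h, beside -0.12 over all probe sets at both times. At 4 h the low dose raised dhs-9 and lowered dhs-20 (0.612% called, 0.494% higher and 0.117% lower). The mid dose at 4 h, with n = 2, raised 1 and lowered 7 (14.8% called, 4.46% higher and 10.4% lower). At 8 h the low dose gave 0 calls by limma and 0 at an unadjusted p under 0.05 (0.29% called, 0.253% higher and 0.0371% lower), and the mid dose raised dhs-9 (2.01% called, 1.58% higher and 0.433% lower). The counts depended on single arrays, on scaling and on the groups and terms of the fit. The mid dose at 4 h gave 4 calls without its replicate 1, 16 without its replicate 2 and 0 with only the compared groups. The high dose at 8 h gave 4 higher and 2 lower calls with the deposited scaling, and 5 higher and 3 lower after quantile normalization. With only the compared groups, or with the replicate number as a term of the fit, it gave 4 higher and 3 lower.

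The raised member was dhs-9 in each cadmium comparison with a higher call. Its signal at 4 h was 1803, 1350 and 1139 in controls, 3661, 2913 and 4287 at the low dose and 5173, 5395 and 3127 at the high dose. At 8 h the controls had 938, 943.1 and 1043 and the high dose 3911, 4083 and 2916. The exposed arrays lay above all controls, and the change was 1.62 at 4 h (SE 0.297, 3.08-fold, adjusted p = 0.000696) and 1.83 at 8 h (3.56-fold, adjusted p = 0.000179). The other members raised by acrylamide were not called for high cadmium. For dhs-12 the changes were -0.26 and 0.42, for dhs-4 they were -0.51 and 0.43, and dhs-5 gave -0.70 and -0.01. The second probe set of dhs-4 did rise at 8 h of high cadmium, by 1.04 (adjusted p = 0.0289), so the 2 probe sets of this gene differ there.

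The lowered members at 4 h of high cadmium were dhs-3, dhs-28, dhs-25, dhs-20, dhs-14, dhs-7 and dhs-26. The lipid droplet gene dhs-3 had 2637, 2426 and 1889 in controls and 723.6, 844.4 and 584.5 when exposed. It fell by 1.62 (SE 0.263, 3.08-fold, adjusted p = 0.00017), and its second probe set fell by 1.72 (adjusted p = 7.18e-05). At 8 h its change was -0.88 (adjusted p = 0.0426), a call that ended with the deposited scaling (0.0961), with the actin ratio in the fit (0.0831), without control replicate 1 or 3 (0.113 and 0.158) and without any exposed array (highest 0.212, without replicate 3). The peroxisomal gene dhs-28 went from 5386, 3961 and 4065 to 1737, 2281 and 1519 at 4 h, with no overlap. Its change was -1.26 (adjusted p = 0.0199). Its second probe set gave -0.60 (adjusted p = 0.19), and the call ended without replicate 1 of the controls (adjusted p = 0.115) or without replicate 1 or 3 of the high dose (0.0616 and 0.0923).

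The gene dhs-25 fell at both times of high cadmium, with changes of -1.73 at 4 h (adjusted p = 0.00482) and -1.66 at 8 h (adjusted p = 0.00724). The latter had an adjusted p of 0.0591 without replicate 2 of the controls. Its 8 h signals were 1228, 1770 and 1061 in controls and 322.2, 449.6 and 383.7 when exposed. For dhs-20 the 4 h controls had 558.6, 596.9 and 600.7, the low dose 326.5, 218.7 and 203.2 and the high dose 120.4, 192.1 and 217.6. It fell at the low dose (adjusted p = 0.00379), at the mid dose by 1.35 and at the high dose 2.84-fold (adjusted p = 1.73e-05). The gene dhs-14 fell from 1026, 971.8 and 1045 to 330.1, 337.2 and 409.5, a change of -1.38 (adjusted p = 0.00119). At 8 h neither dhs-20 nor dhs-14 was called (-0.49 and -0.65).

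Lower values at 4 h were not kept at 8 h for dhs-26 and dhs-7 in cadmium. For dhs-26 the signal at 4 h was 430.8, 342.5 and 453.4 in controls and 95.64, 113.1 and 42.74 at the high dose. At 8 h it was 741.2, 514.1 and 499 in controls and 1053, 1099 and 866.4 when exposed. The exposed arrays were thus below all controls at 4 h and above all controls at 8 h. The change was -1.79 at 4 h (adjusted p = 8.79e-06) and 0.75 at 8 h (adjusted p = 0.0557), and the effect at 8 h exceeded that at 4 h by 2.54 (SE 0.331, adjusted p = 0.000335). The signals of dhs-7 were 461.9, 363.2 and 356 against 168.5, 145.9 and 156 at 4 h, and 254.5, 212.4 and 288 against 529.5, 416.9 and 396 at 8 h. Its changes were -1.09 (adjusted p = 0.0028) and 0.72 (adjusted p = 0.0598), with a difference of 1.80 (SE 0.322, adjusted p = 0.0108). That difference had an adjusted p of 0.0541 without replicate 1 of the 4 h control and of 0.0555 without replicate 1 of the high dose at 8 h. These were the 2 members called between the times, both higher, where 0.235% of all probe sets were called (0.173% higher and 0.0618% lower).

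Beside the lower values at 4 h of high cadmium, 1 of 10 intestine markers fell, with summed signals of 56440 to 69900 in controls and 32470 to 53120 when exposed. Of the other markers, 1 of 7 of body wall muscle, 1 of 10 of oocyte and germline and 0 of 7 of epidermis fell. Their part was not tested. The actin ratio was 0.645 ± 0.184 in the controls and 1.072 ± 0.308 at the high dose (SD, n = 3 each). The GAPDH ratio was 0.002 ± 0.094 and 0.113 ± 0.066. With the actin ratio as a term of the fit the high dose at 4 h kept all of its named calls.

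**Figure D3:**
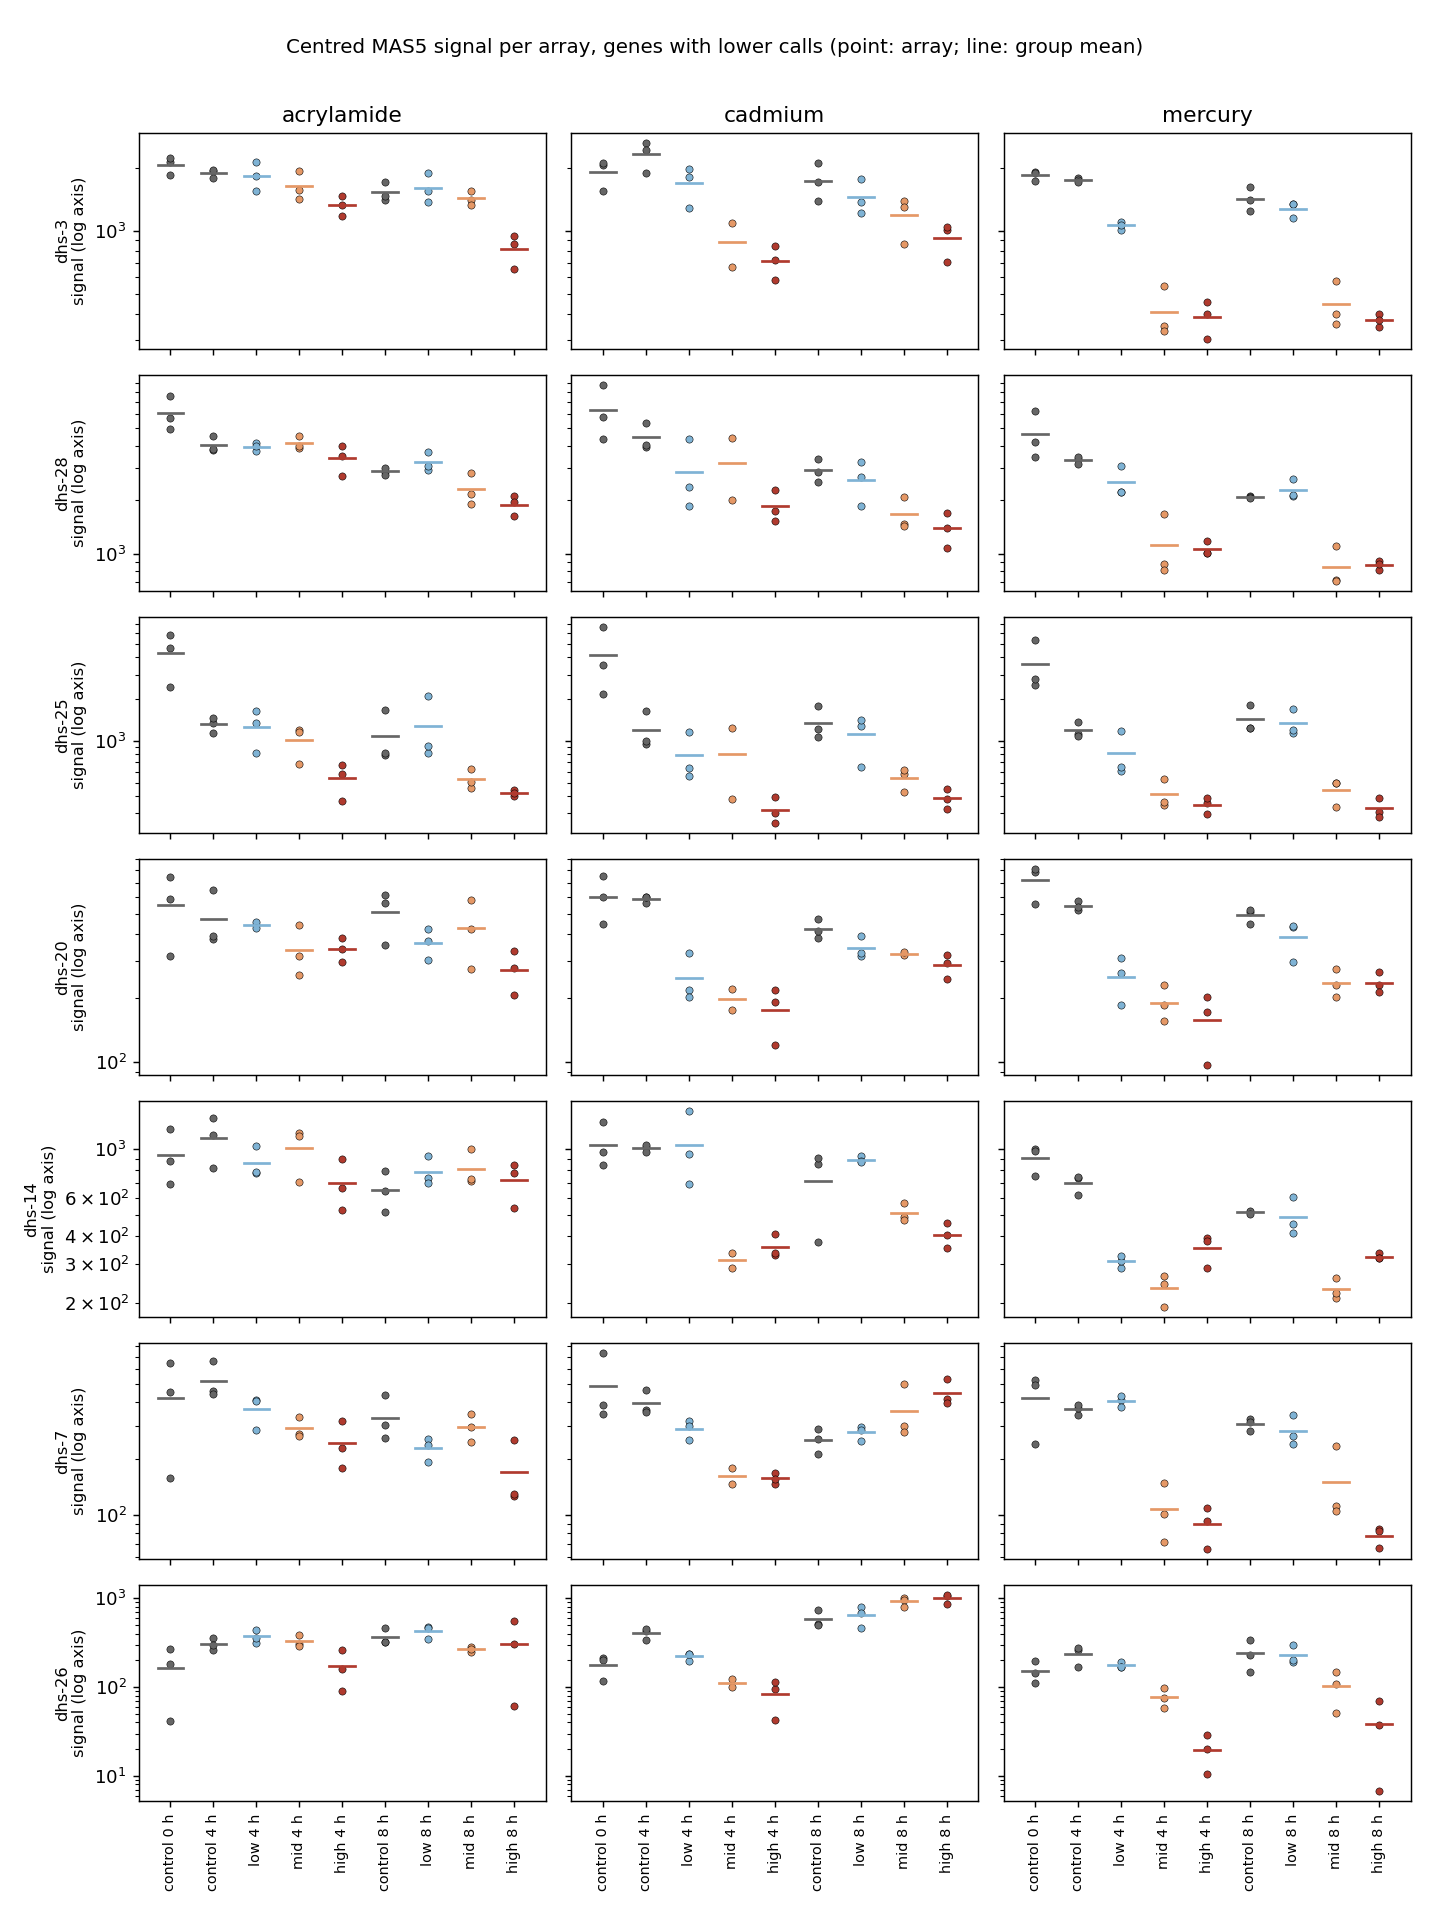
Centred MAS5 signal (log axis) of 7 genes with lower calls in every array (points) of each group, with group means (lines). In cadmium, dhs-26 lies at 42.74 to 113.1 at the high dose at 4 h and at 866.4 to 1099 at 8 h, and in mercury dhs-3 lies at 304.2 to 455.1 at the high dose at 4 h against 1709 to 1777 in controls.

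Mercury gave the most calls among members at the high dose. There 6 rose and 10 fell of 28 at 4 h, where 22.4% of all probe sets were called, and 6 rose and 8 fell at 8 h, where 31.1% were called. Of all probe sets 9.04% were higher and 13.4% lower at 4 h, against 17.1% and 14% at 8 h. The members' median log2 change was -0.15 and 0.00 at the 2 times, beside -0.05 and 0.01 over all probe sets, and that at 8 h was -0.03 with the deposited scaling. At the mid dose 4 rose and 8 fell at 4 h (16.4% called, 6.94% higher and 9.45% lower), and 6 rose and 10 fell at 8 h (17.8% called, 10.3% higher and 7.49% lower). The low dose at 4 h raised dhs-9 and lowered dhs-3, dhs-14, dhs-18 and dhs-20 (2.7% called, 1.04% higher and 1.65% lower). At 8 h it raised dhs-5 alone (0.688% called, all of them higher). The low dose at 4 h gave 2 higher and 3 lower calls with the deposited scaling, and the mid dose at 8 h gave 8 calls without its replicate 3.

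The actin ratio and intestine markers moved with mercury. The actin ratio was 0.855 ± 0.078 in the 4 h controls and 1.314 ± 0.129 at the high dose, and 1.008 ± 0.097 and 1.532 ± 0.127 at 8 h (SD, n = 3 each). The GAPDH ratio did not move with it, at 0.041 ± 0.112 and 0.056 ± 0.053 at 4 h and 0.165 ± 0.047 and 0.163 ± 0.149 at 8 h. With the actin ratio in the fit the high dose at 4 h gave 3 higher and 7 lower calls, in place of 6 and 10. The mid dose at 8 h gave 4 and 5, in place of 6 and 10. Intestine markers fell in 7 of 10 at 4 h and 8 of 10 at 8 h, with summed signals of 53580 to 64240 in the 8 h controls and 29530 to 34850 at the high dose. The lowest signal of an intestine marker on the high-dose arrays at 8 h was 182.6, so none was at 0. Body wall muscle markers fell in 4 and 5 of 7, oocyte and germline markers in 5 and 6 of 10, and epidermis markers in 3 of 7 at both times. Their part in the members' changes was not tested.

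The higher members in mercury included dhs-9, whose 8 h signals were 1006, 952.9 and 1039 in controls and 6020, 7249 and 7830 at the high dose. It rose by 2.75 at 8 h (SE 0.182, 6.71-fold, adjusted p = 6.28e-12) and by 1.87 at 4 h (3.65-fold, adjusted p = 9.7e-09). At 4 h the low dose gave 3316, 3584 and 4512 against 1561, 1164 and 1465, a rise of 1.41 (adjusted p = 6.43e-06), whereas at 8 h the low-dose arrays, at 795.5, 881.8 and 1101, spanned the controls. The gene dhs-8 went from 53.29, 20.26 and 18.58 to 268.9, 315.6 and 448.3 at 8 h, and rose by 2.26 (adjusted p = 6.39e-08) after 1.74 at 4 h (adjusted p = 5.96e-06). With a pseudocount of 16 these were 2.99 and 2.51, so the size is not fixed for this dim gene. In mercury dhs-8 passed the filter through exposed arrays alone, so these calls follow in part from that rule. The rise of dhs-12 was 1.05 at 4 h and 1.01 at 8 h (adjusted p = 0.000299 at both), from 1024, 1095 and 990.2 to 1500, 2692 and 2420 at 8 h.

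For high mercury dhs-5 was called at 8 h, and the difference of its effects at 8 h and 4 h was 1.28 (SE 0.366, adjusted p = 0.0901). The 8 h controls had 60.83, 75.19 and 41.3, the low dose 161.2, 220.2 and 258.1 and the high dose 342, 193.3 and 210.6. Exposed arrays of both doses lay above all controls, and the rise was 1.25 at the low dose (adjusted p = 0.0111) and 1.42 at the high dose (adjusted p = 0.000105). The low-dose call ended without replicate 3 of the controls or without replicate 2 or 3 of the low dose. With the actin ratio in the fit the high-dose value was 0.63 (adjusted p = 0.216). The gene dhs-22 rose by 0.58 and 0.98 (adjusted p = 0.0225 and 0.000142), to 1678, 2374 and 2470 at 8 h from 1032, 1097 and 1049. Smaller rises were those of dhs-31 (0.73) and the lipid droplet gene dhs-19 (0.53) at 4 h and of dhs-6 (0.43) at 8 h. Each of these 3 calls ended with the actin ratio in the fit (adjusted p = 0.412, 0.651 and 0.276), as did that of dhs-22 at 4 h (0.157).

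Among the lower members in mercury was dhs-3. Its 4 h signals were 1777, 1753 and 1709 in controls, 1006, 1103 and 1071 at the low dose, then 544.8, 349.6 and 331.3 (mid) and 401.7, 455.1 and 304.2 (high). No exposed array reached a control. Its change was -0.69 at the low dose (adjusted p = 0.0197) and -2.05 at the high dose (SE 0.173, 4.14-fold, adjusted p = 7.13e-10), and at 8 h of the high dose -1.78 (adjusted p = 6.34e-09). Its second probe set also fell at both times (adjusted p = 3.62e-09 and 2.09e-06). The peroxisomal gene dhs-28 went from 3380, 3183 and 3470 to 1013, 1008 and 1175 at 4 h, and fell by 1.61 (adjusted p = 2.38e-06), with a change of -1.21 at 8 h (adjusted p = 9.18e-05). Its second probe set changed by -0.68 and -0.98 (adjusted p = 0.0116 and 0.000281). With the actin ratio in the fit, the 8 h value of dhs-28 was -0.38 (adjusted p = 0.327).

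Both dhs-26 and dhs-7 fell at both times in mercury. The signal of dhs-26 was 263.3, 169.2 and 278.3 in the 4 h controls and 28.56, 10.6 and 20.19 at the high dose, and 341.5, 231.4 and 147.2 against 6.719, 70.04 and 37.74 at 8 h. The groups did not overlap, and the gene's change was -1.99 at 4 h (adjusted p = 2.58e-06) and -1.70 at 8 h (adjusted p = 1.91e-05). With a pseudocount of 16 these were -2.82 and -2.37, so their size depends on the pseudocount. For dhs-7 the 8 h controls had 324.1, 315.1 and 281.3 and the high dose 84.24, 66.89 and 82.18. Its changes were -1.58 at 4 h and -1.47 at 8 h (adjusted p = 6.7e-06 and 1.36e-05).

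Further falls in mercury were those of dhs-25, dhs-20 and dhs-14. The gene dhs-25 went from 1237, 1828 and 1239 to 387.3, 306.6 and 283.8 at 8 h and fell by 1.96 (adjusted p = 6.23e-07), after a change of -1.64 at 4 h. For dhs-20 the 4 h signals were 575.3, 520.7 and 538.6 in controls, 310.1, 262.1 and 186.2 at the low dose and 202.4, 96.72 and 172.1 at the high dose. The changes at 4 h were -0.99 at the low dose (adjusted p = 0.00221) and -1.55 at the high dose (adjusted p = 8.04e-07), and at 8 h of the high dose -0.91. The low dose of mercury also lowered dhs-14 and dhs-18 at 4 h, with changes of -1.06 and -1.16 (adjusted p = 4.56e-05 and 9.28e-05). At 4 h dhs-14 had 738.8, 616.7 and 745.7 in controls, 190.5, 265 and 242.8 (mid) and 287.1, 394.7 and 380.4 (high) in exposed worms, so the mid-dose arrays lay lowest. High mercury lowered dhs-14 (-0.90 and -0.59) at both times and dhs-18 (-0.83) at 4 h. Small falls of dhs-2 at both times (-0.63 and -0.65) and of dhs-27 at 4 h (-0.68) ended with the actin ratio in the fit (adjusted p = 0.511, 0.403 and 0.298), as did that of dhs-18 (0.0778). For mercury, 0 members were called between the effects at 8 h and at 4 h by limma, 5 had an unadjusted p under 0.05, and 0.802% of all probe sets were called (0.423% higher and 0.379% lower).

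For dhs-4, high mercury gave -0.30 and -0.29, which were not called. Its second probe set rose at the low dose of mercury at 4 h, by 1.22 (adjusted p = 0.00107), where the brighter probe set gave 0.67 (adjusted p = 0.173).

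The genes dhs-16 and stdh-1, tested in all 3 series, had no call under exposure. The dafachronic acid gene dhs-16 changed by -0.46 to 0.39 in the 6 high-dose comparisons, with adjusted p from 0.163 to 0.963. For stdh-1 the changes were -0.46 to 0.53 (adjusted p from 0.216 to 0.797), and its arrays ran from 440.4 to 1494. The L-xylulose reductase gene dhs-21 was called in the mid dose of cadmium at 4 h alone, at 685.3 and 1782 against 2749, 3025 and 2997 in controls (-1.35, adjusted p = 0.00975). This group has n = 2, and with only the compared groups in the fit the adjusted p was 0.295. These tests do not show that the genes were unaffected.

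The effects of the chemicals at 8 h of the high dose were compared in 1 fit of all arrays, each chemical against its own control, with all 3 comparisons using the same exposed and control groups in pairs. Cadmium minus mercury was called in 5 members, 3 higher and 2 lower (3.37% of probe sets called, 2.11% higher and 1.26% lower). Cadmium minus acrylamide was called in 5, 1 higher and 4 lower (2.43%, with 1.6% and 0.825%), and mercury minus acrylamide in 2, both lower (3.34%, with 1.85% and 1.49%). For dhs-4 mercury minus acrylamide was -3.06 (SE 0.366, adjusted p = 8.35e-09) and cadmium minus acrylamide -2.34 (adjusted p = 5.11e-06), so the effect of acrylamide was the higher in both. With the second probe set of dhs-4, which lacks the suffix for shared probes, these differences were -0.92 (adjusted p = 0.229) and -0.22, and neither was called. For stdh-2 they were -3.17 (adjusted p = 3.39e-07) and -2.88 (adjusted p = 2.76e-06), where its cadmium and mercury arrays at 8 h of the high dose had 2.319, 6.52 and 111.6, and 22.5, 3.722 and 8.957. With a pseudocount of 16 the differences were -4.40 and -4.05. As stdh-2 passed the filter through exposed acrylamide arrays, they follow in part from that rule.

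Cadmium differed from acrylamide in dhs-12 (-1.53, adjusted p = 0.00358), dhs-5 (-2.22, adjusted p = 0.00286) and dhs-7 (1.53, adjusted p = 0.0086) as well. From mercury it differed in dhs-26 (2.45, SE 0.468, adjusted p = 0.000319), dhs-7 (2.18, adjusted p = 5.86e-05) and dhs-2 (1.43, adjusted p = 0.00934), where the cadmium effect was the higher, and in dhs-8 (-1.94, adjusted p = 0.0222) and dhs-22 (-1.02, adjusted p = 0.0102), where it was the lower. As dhs-8 passed the filter mainly through exposed arrays, its difference follows in part from that rule. The signal of dhs-2 at 8 h was 403.7, 292 and 545.6 in cadmium controls and 783, 843.8 and 579.7 at the high dose, and 408.2, 388.3 and 346.5 against 258.7, 196.2 and 216.4 in mercury. Thus it was above all controls in cadmium (0.78, adjusted p = 0.0641) and below all in mercury. For dhs-9 no difference was called: cadmium minus acrylamide was -1.31 (SE 0.402, adjusted p = 0.0714), cadmium minus mercury -0.91 (adjusted p = 0.272) and mercury minus acrylamide -0.39 (adjusted p = 0.817).

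Several members changed with time alone. In unexposed worms 1 member rose and 12 fell from 0 h to 8 h in the acrylamide series, where 34.8% of all probe sets were called (10.7% higher and 24.1% lower). In the cadmium series 1 rose and 8 fell (20.1% called, 11.1% higher and 9.02% lower), and in the mercury series 0 rose and 14 fell (41% called, 12% higher and 29% lower). Of the 27 members tested in all 3 series, 7 fell in each: dhs-4, dhs-5, dhs-16, dhs-25, dhs-27, dhs-28 and dhs-29. Of all probe sets tested in the 3 series, 6.66% fell in each. With the deposited scaling it was 6 members (without dhs-28) and 1.54% of probe sets, and after quantile normalization 7 of 26 members (with dhs-9 in place of dhs-28) and 5.49%. The dafachronic acid gene dhs-16 had 316.9, 352.8 and 454 at 0 h and 24.81, 90.12 and 99.79 at 8 h in the acrylamide series. Its changes were -1.84, -1.70 and -1.75 in the 3 series (adjusted p = 0.000351, 2.21e-06 and 1.46e-07). For dhs-27 the mercury series went from 1147, 790.7 and 865.3 to 79.89, 231.1 and 203.6, and the changes were -2.17, -2.31 and -2.20 in the 3 series.

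The genes dhs-4 and dhs-5, which rose in exposed worms, were among those that fell with time in controls. The changes of dhs-5 were -1.90, -2.08 and -2.14 and those of dhs-4 were -1.93, -1.28 and -1.24. Genes with lower calls in exposed worms fell in controls too, dhs-25 with changes of -1.93, -1.46 and -1.22 and the peroxisomal gene dhs-28 with adjusted p = 0.000371, 0.026 and 0.000201. The second probe set of dhs-28 fell in the acrylamide and mercury series (-1.21 and -0.61). In the cadmium series it was not called (-0.44, adjusted p = 0.272). In contrast, dhs-26 rose with time, by 1.12 in the acrylamide and by 1.48 in the cadmium series (adjusted p = 0.041 and 2.9e-05), and was not called in the mercury series (0.49). The call in the acrylamide series ended without the filter on dim probe sets (adjusted p = 0.0566), after quantile normalization (0.0748) and with the actin ratio in the fit (0.0545). In the same comparison 8, 9 and 8 of 10 oocyte and germline markers rose. Lower were 5, 4 and 5 of 7 epidermis markers, 5, 0 and 3 of 7 body wall muscle markers and 6, 0 and 2 of 10 intestine markers, and with the deposited scaling 0 of the muscle and 0 of the intestine markers were lower in any series. At 8 h of the high doses 8, 7 and 6 of the 10 oocyte and germline markers fell against the 8 h controls. The part of all these markers in the members' changes was not tested. In the acrylamide series replicate 1 of the 0 h control stood apart, with a trimmed mean of 213.2 (before centring) against 493.5 to 497.4 in the other arrays. The 1 higher and 12 lower calls there became 5 higher and 6 lower with the deposited scaling, under which the median of all probe sets moved from -0.22 to 0.39.

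**Figure D4:**
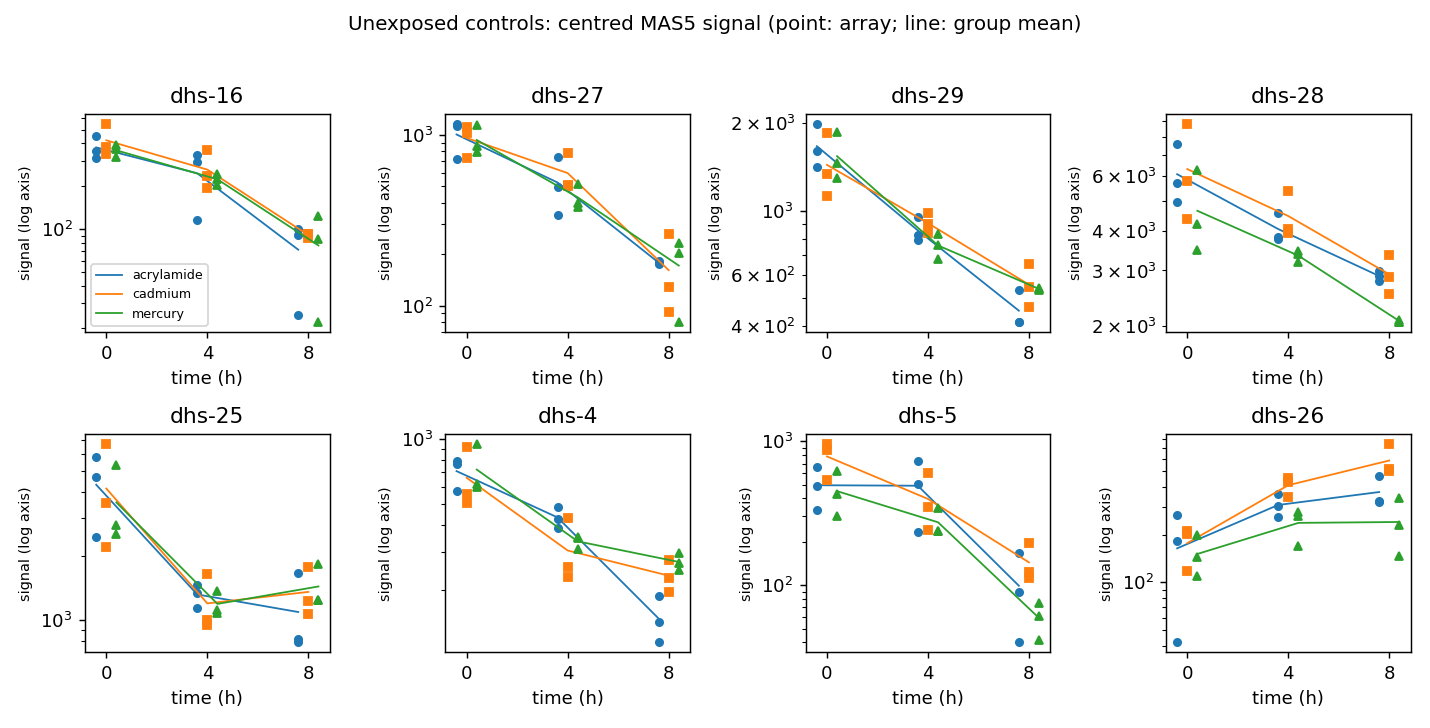
Centred MAS5 signal (log axis) against time (h) in unexposed controls of the acrylamide, cadmium and mercury series for 8 genes, with a point per array, shifted sideways by series, and a line through the group means. The panel of dhs-16 falls from 316.9 to 454 at 0 h to 24.81 to 99.79 at 8 h in the acrylamide series, while that of dhs-26 rises.

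Related genes were counted from lists of the pathways and families around these members. Of 10 genes of peroxisomal beta-oxidation tested, the pathway of dhs-28, 0 rose in any high-dose comparison. In acrylamide 3 fell at 4 h and 3 at 8 h, in cadmium 7 and 2, and in mercury 6 and 4. The list's median log2 change at 4 h was -0.58, -1.23 and -1.01 in the 3 series and kept its sign under the deposited scaling (-0.47, -0.98 and -0.93) and quantile normalization. With the deposited scaling 1 of them fell in acrylamide at 4 h, and after quantile normalization 1 rose in mercury at 8 h. At 4 h acox-1.2, which encodes an acyl-CoA oxidase, fell in all 3 series, 8.57-fold, 13.04-fold and 13.48-fold (adjusted p = 7.14e-05, 7.79e-07 and 1.58e-12). The thiolase gene daf-22, whose product acts after that of dhs-28, fell at 4 h in cadmium (-1.39) and mercury (-1.43; adjusted p = 0.00439 and 0.000528), and was not called in acrylamide (-0.60).

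Among 9 genes of lipid droplets and triglyceride tested for acrylamide and 8 for each metal, plin-1, which encodes the lipid droplet protein perilipin, rose by 1.95 at 4 h in high acrylamide (adjusted p = 0.000215). In mercury, where dhs-3 fell, it rose by 1.07 and 1.52 (adjusted p = 0.000269 and 1.4e-06). The diacylglycerol acyltransferase gene dgat-2 rose by 1.74 and 1.47 in acrylamide (adjusted p = 1.69e-05 and 0.000121). The acyl-CoA synthetase gene acs-22 fell in mercury (-1.26 and -0.80) and at 4 h in cadmium (-1.25). In all, 2 rose and 0 fell at 4 h and 3 and 0 at 8 h in acrylamide, 0 and 2 then 0 and 0 in cadmium, and 1 and 2 at both times in mercury. The median of this list at 4 h of cadmium was -0.22, and 0.01 with the deposited scaling.

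Of the 6 genes of dafachronic acid and steroid hormone handling, 0 were called in high acrylamide, 1 fell at 4 h and 0 were called at 8 h in cadmium, and in mercury 3 fell at 4 h and 1 rose and 1 fell at 8 h. The oxygenase gene daf-36 fell in mercury, with changes of -1.48 and -1.55 (adjusted p = 0.00104 and 0.000478), and daf-9, which encodes a later P450 of that pathway, rose by 0.46 at 8 h (adjusted p = 0.0451), a call that ended after quantile normalization (0.0521) and without the filter (0.0635). The gene that fell in cadmium, strm-1, had an adjusted p of 0.0731 with the deposited scaling. Among other short-chain dehydrogenases, tested in 8 genes for acrylamide and mercury and 9 for cadmium, sdz-8 rose by 4.09 and 4.13 in acrylamide (16.99-fold and 17.47-fold, adjusted p = 2.65e-08 and 1.4e-08), by 3.63 and 3.73 in mercury (adjusted p = 1.08e-10 and 4.88e-11), and by 1.13 in cadmium at 8 h (adjusted p = 0.00914). The steroid dehydrogenase gene let-767, related to the stdh genes, fell in mercury (-0.57 and -0.81), and ger-1 fell by 1.05 at 8 h in acrylamide. Of 14 other carbonyl and alcohol oxidoreductases, 2 rose and 1 fell, then 3 and 1, in acrylamide, 0 and 2, then 0 and 0, in cadmium, and 1 and 2, then 3 and 3, in mercury. The aldehyde dehydrogenase gene alh-13 fell at 4 h in acrylamide (-1.37) and cadmium (-1.97) and at both times in mercury (4.29-fold and 3.24-fold). The acrylamide call of alh-13 ended after quantile normalization (adjusted p = 0.0576). In contrast, the alcohol dehydrogenase gene sodh-2 rose by 1.47 and 1.86 in acrylamide and by 1.03 at 4 h in mercury.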

How the data were processed

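Whole-worm polyadenylated RNA was labelled with biotin and read on 80 arrays, per the labels' protocols. The deposited intensity values, 1 per probe set and array, are MAS5 signals on a linear scale, per the submitters' processing notes. The scaling target and MAS5 version are not given in the sources used here. The table holds 22625 probe sets, from which 77 AFFX controls were dropped. Array medians ran from 80.32 (next 152.7) to 282.2, and all arrays were centred on 202.9. Between 58.12% and 65.05% of probe sets then exceeded 132 per array, and arrays of a group correlated at 0.831 to 0.984 (median 0.965). The number of arrays limits the precision.

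Groups followed the sample titles. Each chemical was fitted with limma 3.58.1 in R 4.3.3 on log2(signal + 52), with 52 the 20th percentile, 1 mean per group and a variance trend (residual degrees of freedom 18, 17 and 18). For differences between chemicals all 80 arrays entered a joint fit (53 degrees of freedom). The script was tested on simulated data. The genes and lists were chosen with earlier results of these data known. Named are all members called in a high-dose comparison, with dhs-3, dhs-16, dhs-28 and the stdh genes, and up to 3 called genes per list and comparison. The gene dhs-21 and the other members without such a call are named after their values were seen. Lists were other short-chain dehydrogenases, dafachronic acid and steroid hormone, peroxisomal beta-oxidation, lipid droplet and triglyceride, other carbonyl and alcohol oxidoreductases, and markers of intestine, oocyte and germline, epidermis and body wall muscle. Alternatives were the deposited scaling, quantile normalization, a pseudocount of 16, no filter, the replicate number as a block, only the compared groups, the second probe set and leaving out each array. The actin ratio as a term and leaving out the array that stood apart were added after seeing the data.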

Additional observations from a re-analysis of the deposited data

Results flagged for a closer look

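In 14 results the effect of a high dose differed between 8 h and 4 h or between chemicals at 8 h by a test of the difference itself (limma, Benjamini-Hochberg over all probe sets tested). Between the times in cadmium the difference was 2.54 for dhs-26 (SE 0.33, adjusted p = 0.000335) and 1.8 for dhs-7 (SE 0.32, adjusted p = 0.0108). As cadmium minus mercury it was 2.45 for dhs-26, 2.18 for dhs-7, 1.43 for dhs-2, -1.02 for dhs-22 and -1.94 for dhs-8. The values for cadmium minus acrylamide were -2.88 for stdh-2, -2.34 for dhs-4, -2.22 for dhs-5, -1.53 for dhs-12 and 1.53 for dhs-7. As mercury minus acrylamide the difference was -3.17 for stdh-2 and -3.06 for dhs-4. Mainly exposed arrays carried dhs-8 over the filter, so its difference follows in part from that rule. The gene stdh-2 was tested because exposed acrylamide arrays passed the filter, so its differences follow in part from that rule, and with a pseudocount of 16 they were -4.05 and -4.40. Several lost the call under an alternative: both differences of dhs-4 with its second probe set, that of dhs-8 with a pseudocount of 16 (adjusted p = 0.085), with the deposited scaling (0.0517) or without any of 5 arrays (0.0536 to 0.11: cadmium 8 h control and high dose replicate 1, mercury 8 h control replicates 2 and 3, and mercury high dose replicate 3), and that of dhs-7 between cadmium and acrylamide without replicate 2 of the acrylamide 8 h control (0.0552). The difference of dhs-2 had an adjusted p of 0.0589 without replicate 2 of the cadmium 8 h control, and that of dhs-22 of 0.0507 without replicate 3 of high mercury at 8 h or 0.0515 without replicate 3 of high cadmium.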

How the results depend on the processing

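Single members were followed through the alternatives for calls at the high doses and for differences between effects. Of these 70 called results, 46 kept the call under every alternative run and 24 lost it under at least 1. Of the 24, 17 lost it when an array was left out, and 0 reversed. Calls at the low and mid doses and in controls over time are not among the 70. The 27 counts of called members had 191 alternatives besides leaving out arrays, of which 174 were within 1.5 times. With the actin ratio as a term the count went from 2 to 1 (cadmium low 4 h), from 16 to 10 (mercury high 4 h) and from 16 to 9 (mercury mid 8 h). With only the compared groups it went from 8 to 0 (cadmium mid 4 h), 1 to 2 (cadmium mid 8 h) and 3 to 7 (cadmium high 8 h). Quantile normalization gave 2 for cadmium mid 8 h, 8 for cadmium high 8 h, 1 in place of 0 for mercury 8 h against 4 h, and 4 in place of 2 for mercury against acrylamide. The deposited scaling gave 1 in place of 2 for acrylamide low 8 h and cadmium low 4 h, 6 for cadmium high 8 h and 4 for mercury against acrylamide. It moved the higher and lower calls from 3 and 2 to 5 and 1 for cadmium against mercury, and quantile normalization moved them to 5 and 2. Under the deposited scaling the median of all probe sets shifted by over 0.1 for high cadmium at 4 h (-0.12 to 0.10) and 8 h (-0.12 to 0.02), mid cadmium at 8 h (-0.11 to 0.02), low mercury at 4 h (-0.04 to 0.06), mercury at 8 h against 4 h (0.09 to -0.02), mercury controls over time (-0.22 to 0.03), mercury against acrylamide (0.08 to -0.05) and cadmium against mercury (-0.16 to 0.01). Quantile normalization shifted it by over 0.1 for the acrylamide and mercury controls over time (-0.22 to -0.10 and -0.22 to -0.09) and for cadmium against mercury (to -0.05). Further splits were 2 and 6 (deposited) and 3 and 6 (quantile) for cadmium mid 4 h, 1 and 0 (deposited) for cadmium low 4 h, and 3 and 3 (quantile) for mercury low 4 h. Leaving out single arrays gave ranges of 0 to 2 for cadmium low 4 h, 4 to 16 for cadmium mid 4 h, 1 to 2 for cadmium 8 h against 4 h, 0 to 2 for mercury low 8 h, 8 to 16 for mercury mid 8 h, 3 to 6 for cadmium against mercury and 2 to 4 for mercury against acrylamide. The causes were not tested.

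With the replicate block the count was 2 in place of 1 for cadmium mid 8 h, 7 in place of 3 for cadmium high 8 h and 2 in place of 0 for mercury 8 h against 4 h. Same-numbered arrays correlated at -0.291 to 0.685 (median 0.295) over 53 pairs, above 0.1 in 38. The labels' numbers were not taken as a pairing, for which every pair would have to exceed 0.1, although 39 pairs correlated best with their own number, a hint from the data and not from the design. The block ended none of the 70 called member results. Dim members such as stdh-2 and dhs-8 in controls were limited by signals below 132.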
